A study of Mus musculus with 6 samples.

Results

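The genes described here encode adhesion and surface proteins of endothelium, the cells that line blood vessels, and were measured in mouse embryoid bodies, aggregates in which embryonic stem cells differentiate. They were Cdh5, Cldn5, Esam, Pecam1, Icam2, Emcn, Cd93, Stab1, Plvap and Egfl7, 10 of 20887 genes named on the array. They were found through the accession of each probe, which gave 11 of 55681 probes: 1 probe for each of 9 genes and 2 for Plvap. The genes were chosen with their levels in these embryoid bodies already known, so the comparison with wild type below is a description, without a test.

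The embryoid bodies came from 2 stem cell lines with all 3 Tet genes knocked out, TKO_26 (TKO#26 in the labels) and TKO_29 (TKO#29), and from 1 wild-type (WT) line, all of mixed 129/C57BL6 background. The Tet genes encode dioxygenases that oxidise 5-methylcytosine in DNA. All lines were kept for 2 days in hanging drops and 8 days in suspension, without the self-renewal factor LIF, and the study asked how loss of the Tet enzymes affects differentiation. Total RNA was measured on 1-colour arrays, 2 per line, which the series describes as technical replicas. Each line is a single line and WT has only 1, so a difference between genotypes cannot be told apart from one particular to the WT line. The p-values below cover the spread between arrays, which may be technical. A single slide held all arrays, WT in one column and TKO in the other, and position cannot be told apart from genotype either.

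Endothelial cells hold to each other through adherens junctions, built on VE-cadherin, and tight junctions, built on claudins and immunoglobulin-type adhesion molecules. Their free surface carries sialomucins, lectin-like and scavenger receptors and the proteins of fenestrae. This set of proteins appears as endothelial cells mature from mesodermal progenitors, and several of them are shared with platelets, macrophages or, for PECAM1, undifferentiated mouse stem cells. All 10 endothelial markers listed for a check of the label (Cdh5, Pecam1, Tie1, Tek, Kdr, Flt1, Erg, Sox17, Sox18 and Vwf) gave signal well above background in WT, on each array, and 5 of them did on all 4 TKO arrays.

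Levels are given as the log2 processed signal minus the array's 75th percentile, taken over the 19178 probes that were well above background on all 6 arrays. A level of 0 is thus a bright probe, and levels of different probes are not comparable. The share of spots well above background was 38.4% to 55.8% per array, lowest on TKO_26 replicate 1. That array also had the largest median coefficient of variation of repeated probes, 9.18%, against 4.31% to 5.29% on the others. Having 2 arrays per line limits how precisely any level is known. The brighter Tet1 probe lay between -2.81 and -2.01 on the TKO arrays, below -1.21 and -0.93 on the WT arrays. The brighter Tet2 probe lay between -4.73 and -3.77 on the TKO arrays, below -2.84 and -2.59 on the WT arrays. The dimmer Tet1 probe overlapped between genotypes, and the brightest of the 3 Tet3 probes was higher in TKO_26 and lower in TKO_29 than in WT. The other Tet2 probe and the other Tet3 probes were lower on all TKO arrays than on both WT arrays. Of these Tet3 probes, one was well above background on no TKO array. The other was so on 1 WT array and on neither TKO_26 array, so these Tet3 decreases are not measured sizes. The sources used here do not say whether the Tet probes fall inside the deleted regions, so they check the labels only in part.

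Of the 10 genes, 9 were lower in both TKO lines than in WT, and Pecam1 was not. For these 9 genes every TKO array lay below both WT arrays. Of these 9, Cldn5 and Plvap were measured without saturation on all 6 arrays. Egfl7 was saturated on 2 arrays, and the other 6 were not well above background on at least 1 TKO array, so their size is partly a bound. By the limma call used for all genes, which asks for an adjusted p under 0.05 and a 2-fold difference in each line, 9 of 10 were lower, against 6.59% of the 21421 genes and features tested. In TKO_26 alone 9 of 10 were lower, against 7.79%, and in TKO_29 alone 9 of 10, against 11.2%. On averages per line 6 of 10 were lower, against 0.752%. This last call depended on the processing. On averages per line 0 features passed with normexp and quantile normalisation, without a filter on dim probes, or with signal demanded on all 6 arrays. None of the 10 genes passed there either. An arrangement with all 4 TKO arrays below both WT arrays was seen in 25.5% of all features. As these genes were picked on this contrast, nothing is read from the counts. The median difference of the 10 genes was -5.59, or -4.75 with dim genes at their bounds, and that of all features was -0.04. Fewer endothelial cells and less RNA per cell cannot be told apart in such bulk samples.

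**Figure D1:**
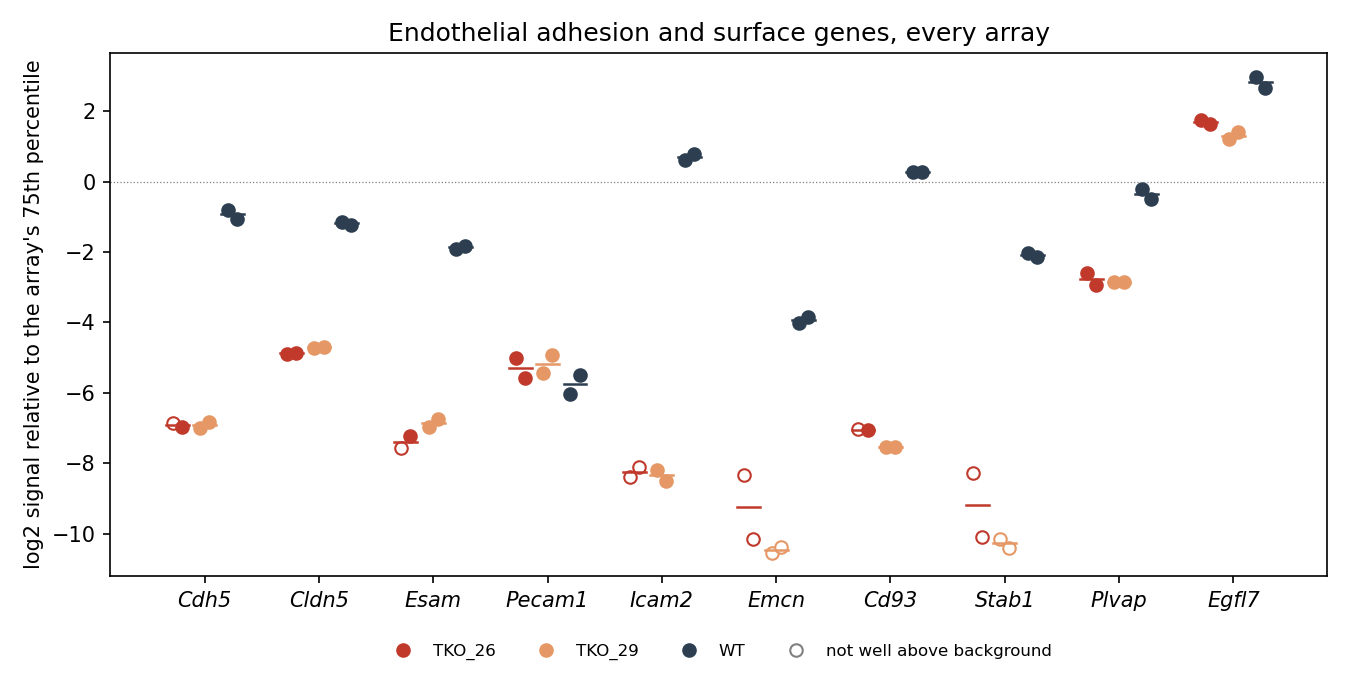
Log2 signal of the 10 genes relative to the array's 75th percentile (vertical axis), with 1 point per array for TKO_26, TKO_29 and WT and a bar at each line's mean. For Plvap the brighter probe is shown. Open points were not well above background. For 9 genes the TKO points lie below both WT points, while those of Pecam1 overlap.

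The junction proteins came first. Cdh5 encodes VE-cadherin, the transmembrane cadherin of endothelial adherens junctions. Its level was -6.87 and -6.97 on the TKO_26 arrays and -7.00 and -6.84 on the TKO_29 arrays, against -0.79 and -1.07 on the WT arrays. The 4 TKO arrays spanned 0.16, and their highest lay 5.77 below the lowest WT array. TKO_26 replicate 1 was not well above background for this probe, so Cdh5 was at least 57.0-fold lower over both lines. In TKO_29, where both arrays measured it, it was 63.6-fold lower (log2 difference -5.99 ± 0.15, SE). For such a bound the dim arrays take the floor of detection, the lowest signal on that array still well above background, unless the probe itself was brighter. A probe could lie above that floor and still not be well above background, as Icam2 did on TKO_26 replicate 2 (-8.12, floor -8.85). Each such bound is therefore approximate, and it holds only for the processing used here. With normexp and quantile normalisation the fitted difference of Cdh5 was -4.65, smaller than its bound of -5.83 on the log2 scale.

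Cldn5 encodes claudin-5, the main claudin of endothelial tight junctions, best known from the blood-brain barrier. It had levels of -4.88 and -4.87 in TKO_26 and of -4.71 and -4.69 in TKO_29, against -1.14 and -1.22 in WT. All 6 arrays were well above background, so this decrease is a measured one: 13.001-fold in TKO_26 and 11.5-fold in TKO_29 (log2 differences -3.70 and -3.52, each ± 0.11, SE). Signal of Cldn5 thus remained on every TKO array.

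Esam encodes an immunoglobulin-type adhesion molecule of endothelial tight junctions that platelets also carry. It lay at -7.57 and -7.23 in TKO_26 and at -6.97 and -6.74 in TKO_29, against -1.91 and -1.82 in WT. The first of the TKO_26 arrays was not well above background. Esam was 31.7-fold lower in TKO_29 and at least 29.2-fold lower in TKO_26. In TKO_29 the log2 difference was -4.99, but -4.15 with the authors' matrix values and -4.03 with normexp and quantile normalisation.

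Pecam1 encodes PECAM-1 (CD31), an immunoglobulin-type molecule at endothelial cell contacts that platelets, leukocytes and mouse embryonic stem cells carry as well. Its 1 probe had levels of -5.02 and -5.57 in TKO_26 and of -5.44 and -4.93 in TKO_29, against -6.03 and -5.48 in WT. All arrays were well above background and the genotypes overlapped. The log2 differences were 0.46 in TKO_26 and 0.57 in TKO_29, each ± 0.32 (SE). Over all the processing alternatives the mean difference stayed between 0.24 and 0.78. A decrease like that of its junction neighbours was thus seen under none of them. The probe was dim in WT, however (mean -5.75), and the floor of detection on TKO_26 replicate 1 was -6.24. The floors of TKO_26 replicate 2 and of the TKO_29 arrays were -8.85, -9.80 and -9.15. A decrease as large as that of Cdh5 or Esam would have ended below the floor of every TKO array, and 1 like that of Cldn5 below most of them. The size of such a decrease could therefore not have been measured. The array held no other probe matched to Pecam1, so it is not known here whether another part of the transcript would give the same picture.

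Among markers of undifferentiated stem cells, 4 of 10 rose in both TKO lines and none (0) fell by the limma call, with 4.05% and 6.59% of all features called higher and lower; at an unadjusted p under 0.05 in both lines 6 were higher and 1 lower. Nanog rose 4.06-fold on its brighter probe, while its other probe differed by 0.18 in TKO_26 and -0.48 in TKO_29. Tcl1 rose 3.86-fold, Fbxo15 2.89-fold and Sox2 2.33-fold. The summed signal of the 8 markers that were saturated on no array, in multiples of the 75th percentile, was 6.98 to 7.68 on the TKO arrays and 3.67 and 4.07 on the WT arrays. This limit to unsaturated markers was set after seeing the data. Dppa5a, left out by it, was saturated on all 6 arrays. Over all 10 markers, capped signals included, the sums overlapped, at 12.1 to 19.8 on the TKO arrays and 16.9 and 12.4 on the WT arrays. All 10 were well above background on every array. The part of these cells in the Pecam1 signal was not tested.

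Icam2 encodes an immunoglobulin-type ligand of the leukocyte integrin LFA-1, present on resting endothelium. Its levels were -8.38 and -8.12 in TKO_26 and -8.19 and -8.50 in TKO_29, against 0.62 and 0.78 in WT. The highest TKO array lay 8.74 below the lowest WT array. Both TKO_29 arrays were well above background and neither TKO_26 array was. The decrease was 529-fold in TKO_29 and at least 236-fold in TKO_26. These sizes hold only for the processing used here. The log2 difference in TKO_29 was -9.05, but -7.32 with the authors' matrix values and -7.09 with normexp and quantile normalisation.

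The other surface proteins follow in turn, without a ranking by the signal left in TKO, since levels of different probes are not comparable. Cd93 encodes a C-type lectin-like glycoprotein of endothelium that binds multimerin-2. It had levels of -7.04 and -7.07 in TKO_26 and of -7.55 and -7.54 in TKO_29, against 0.27 and 0.28 in WT. The decrease was 227-fold in TKO_29 and at least 122-fold in TKO_26, whose first array was not well above background. In TKO_29 the log2 difference was -7.82, but -6.43 with the authors' matrix values and -6.28 with normexp and quantile normalisation. Mmrn2, which encodes multimerin-2 and was named after its values were seen, fell 16.1-fold and was measured on all arrays.

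Stab1 encodes stabilin-1, a scavenger receptor of sinusoidal endothelium and of some macrophages. It had levels of -8.27 and -10.11 in TKO_26 and of -10.16 and -10.40 in TKO_29, against -2.03 and -2.14 in WT. Emcn encodes endomucin, a sialomucin of venous and capillary endothelium. It lay at -8.35 and -10.16 in TKO_26 and at -10.54 and -10.39 in TKO_29, against -4.01 and -3.86 in WT. No TKO array was well above background for either gene, so only bounds can be given: at least 85.7-fold lower for Stab1 and at least 23.8-fold lower for Emcn. These bounds depend on the background correction: the fitted log2 differences of Stab1 and Emcn were -5.00 and -3.41 with the authors' matrix values and -4.62 and -3.04 with normexp, against -7.65 and -5.93 here. Normexp also gave smaller fitted differences for Cdh5 (-4.65), Esam (-4.27), Icam2 (-7.15) and Cd93 (-6.34). These fall short of their bounds over both lines, which were -5.83, -4.93, -8.47 and -7.38 on the log2 scale. TKO_26 replicate 1, with the highest detection floor of the arrays (-6.24), stood above the other TKO arrays for both genes. Emcn lost its call without WT replicate 1, with a mean difference of -6.01.

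Plvap encodes the protein of the diaphragms that span endothelial fenestrae and caveolae. Its brighter probe had levels of -2.60 and -2.95 in TKO_26 and of -2.85 and -2.84 in TKO_29, against -0.21 and -0.48 in WT. Its second probe lay at -5.26 and -5.56 in TKO_26 and at -5.79 and -5.69 in TKO_29, against -4.08 and -3.81 in WT. Both probes were well above background on all arrays and had the same direction, 5.53-fold lower on the brighter and 3.10-fold lower on the dimmer.

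Egfl7 encodes a secreted protein with EGF-like domains that endothelial cells deposit during tube formation. Its levels were 1.74 and 1.64 in TKO_26 and 1.22 and 1.40 in TKO_29, against 2.98 and 2.66 in WT. The probe was saturated on WT replicate 2 and on TKO_29 replicate 1, where its values can only be too low. With the scaling used here, and as far as the cap alone goes, Egfl7 was therefore at least 2.18-fold lower in TKO_26. No fold is given for TKO_29, where both sides were capped on 1 array. The fitted log2 differences were -1.13 in TKO_26 and -1.51 in TKO_29, each ± 0.16 (SE). In TKO_26 the difference was smaller with normexp and quantile normalisation (-0.77) and with the authors' matrix values (-0.75), so 2.18-fold is no minimum across processing. Among the 1601 features with a WT level of 2 or more, the median difference was -0.27 in TKO_26 and -1.20 in TKO_29, and 1.81% were called lower in both lines. In the bin from 2 to 3, which holds Egfl7, 92.2% of features were saturated on at least 1 array. Its call was lost with normexp and quantile normalisation (mean difference -0.60), with the authors' matrix values (-0.63), without a filter on dim probes (-1.32) and without WT replicate 1 (-1.16). The part of saturation in the Egfl7 difference was not tested.

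**Figure D2:**
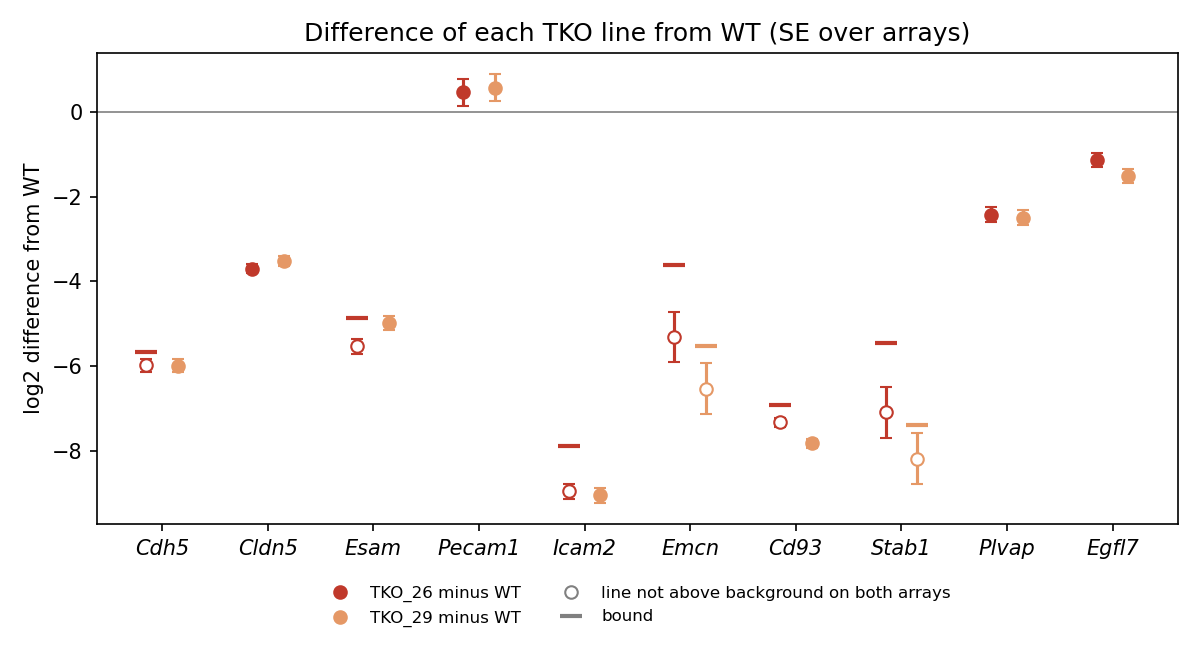
Log2 difference from WT (vertical axis) of each gene in TKO_26 and TKO_29, with the standard error from the limma fit of 6 arrays. Open points mark lines in which the gene was not well above background on both arrays, and dashes their bounds. The differences run from near 0.5 for Pecam1 to -9.05 for Icam2 in TKO_29.

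**Figure D3:**
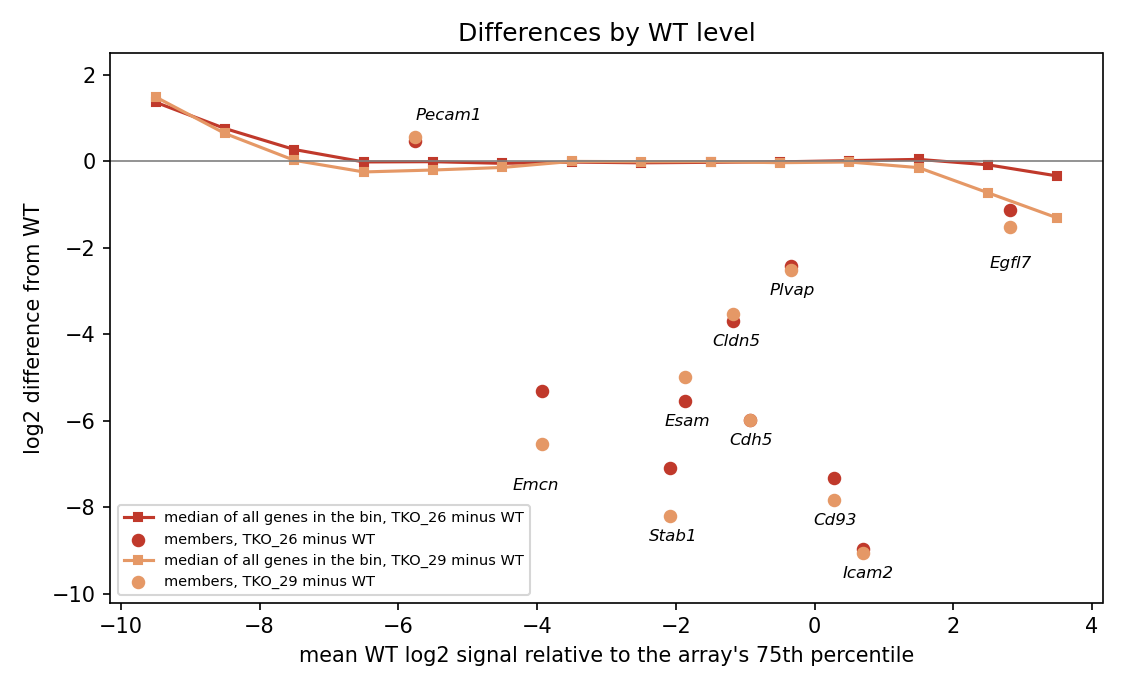
Log2 difference from WT (vertical axis) against the mean WT level (horizontal axis), with lines through the medians of all features in bins of 1 log2 unit and points for the 10 genes in each TKO line. Egfl7 lies in the bin from 2 to 3, whose median was -0.08 in TKO_26 and -0.73 in TKO_29.

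The TKO lines were then compared with each other, a contrast that did not choose the genes. None of the 10 (0) passed, with limma adjusted p between 0.103 and 0.989 over all features and 2 of 10 at an unadjusted p under 0.05. Of all features 0% passed, and 4787 had an unadjusted p under 0.05. The smallest adjusted p was that of Cd93, 0.50 ± 0.11 (SE) higher in TKO_26 than in TKO_29 on the log2 scale (limma adjusted p = 0.103). Esam was 0.55 ± 0.17 lower in TKO_26 (limma adjusted p = 0.171). Both of these were well above background on only 1 TKO_26 array. Of the genes measured on all arrays, Cldn5 differed by -0.18 ± 0.11, Pecam1 by -0.11 ± 0.32 and Plvap by 0.07 ± 0.18. Egfl7 differed by 0.38 ± 0.16, with the TKO_29 value capped on 1 array. Without TKO_26 replicate 2, Emcn and Stab1 passed (limma adjusted p = 0.0233 for each). That fit leaves TKO_26 with replicate 1 alone, the array with the highest floor, assumes that it varies like the other groups, and compares signals that were above background on no TKO array, so no size is given. A p that misses the threshold does not show that the lines were alike.

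Of the 10 genes, 4, namely Cldn5, Egfl7, Emcn and Stab1, had a promoter among the RefSeq sequences used here (assembly GRCm38.p6), Egfl7 having 3 and the others 1 each. The others were Cdh5, Esam, Pecam1, Icam2, Cd93 and Plvap. The promoters are shown because CpG sites, where the TET enzymes act, differ widely among genes that were lower together. Each runs from 250 bases before to 50 bases after the transcription start, 5′ to 3′ on the gene's strand, with CpG sites in capitals.
Emcn, chr3:137340828-137341127, plus strand: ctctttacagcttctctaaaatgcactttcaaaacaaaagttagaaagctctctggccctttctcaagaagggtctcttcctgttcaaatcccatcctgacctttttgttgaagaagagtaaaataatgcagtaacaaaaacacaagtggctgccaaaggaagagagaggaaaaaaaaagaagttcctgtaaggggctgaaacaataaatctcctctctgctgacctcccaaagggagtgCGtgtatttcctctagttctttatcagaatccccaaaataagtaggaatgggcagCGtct
Stab1, chr14:31168592-31168891, minus strand: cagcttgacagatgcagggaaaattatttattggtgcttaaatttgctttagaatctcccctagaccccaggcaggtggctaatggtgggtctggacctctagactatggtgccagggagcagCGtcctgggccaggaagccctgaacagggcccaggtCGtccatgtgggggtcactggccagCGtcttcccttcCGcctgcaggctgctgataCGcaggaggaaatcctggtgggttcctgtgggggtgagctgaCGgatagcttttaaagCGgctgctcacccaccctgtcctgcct
Cldn5, chr16:18776597-18776896, plus strand: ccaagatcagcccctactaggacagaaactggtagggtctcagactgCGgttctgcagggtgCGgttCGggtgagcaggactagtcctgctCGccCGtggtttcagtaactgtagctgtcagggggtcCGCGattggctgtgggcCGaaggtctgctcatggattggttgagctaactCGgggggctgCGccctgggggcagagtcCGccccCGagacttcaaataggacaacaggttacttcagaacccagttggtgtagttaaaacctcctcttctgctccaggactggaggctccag
Egfl7 upstream promoter, chr2:26580833-26581132, plus strand: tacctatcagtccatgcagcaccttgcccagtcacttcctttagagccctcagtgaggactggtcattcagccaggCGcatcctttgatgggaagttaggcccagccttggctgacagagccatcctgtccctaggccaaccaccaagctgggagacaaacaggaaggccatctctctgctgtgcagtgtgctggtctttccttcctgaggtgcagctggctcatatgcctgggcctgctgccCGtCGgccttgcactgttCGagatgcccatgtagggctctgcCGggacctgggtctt
Egfl7 downstream promoter, chr2:26586386-26586685, plus strand: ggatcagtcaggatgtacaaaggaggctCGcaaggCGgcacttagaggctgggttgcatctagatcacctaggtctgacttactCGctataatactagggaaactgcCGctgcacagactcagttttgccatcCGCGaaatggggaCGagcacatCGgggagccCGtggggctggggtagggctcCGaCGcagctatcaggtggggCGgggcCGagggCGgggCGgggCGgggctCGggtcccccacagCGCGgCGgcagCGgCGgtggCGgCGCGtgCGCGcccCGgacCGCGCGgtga

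The Emcn promoter held 2 CpG sites and the Stab1 promoter 7. The Cldn5 promoter held 12. The Egfl7 promoters held 5, 8 and 31, the last being the downstream one shown, in a window of 67.3% G and C. The median over 32851 promoters was 7, with quartiles of 3 and 20. The promoters of Emcn and the upstream one of Egfl7 lay below this median, and that of Stab1 lay at it. The promoter of Cldn5 and the other Egfl7 promoters lay above it. The remaining genes that were lower in TKO had no promoter among the sequences used here. A relation between CpG sites and the loss of signal in TKO was therefore not tested. Which Egfl7 promoter was in use is not given by the array. Methylation was not measured.

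The same promoters were searched on both strands for short motifs of transcription factor families known in endothelium, chosen after the genes' values were known. Positions count from the transcription start. The ETS-type motif AGGAAG occurred in 4 of the 6 promoters, and 35.4% of all promoters held it. It was found at -93 and -174 from the start in Emcn, the second on the opposite strand, at -116 in Stab1, and in 2 of the 3 Egfl7 promoters. Another ETS-type motif, CGGAAG, which differs from it in the first base and so never matches at the same place, occurred in Stab1 at -58 on the opposite strand (16.9% of all promoters). The SOX-type motif AACAAT occurred in Emcn at -50 (10.7% of all promoters). The GATA-type motif AGATAA (11.2%) and the TATA-type motif TATAAA (13.6%) occurred in 0 of the 6, which says only that these letters are not in these windows. A match is a string of letters and not a bound site.

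Other endothelial surface genes, 36 in a list drawn up with earlier results known, fell as well. Of the 29 tested, 19 fell in both TKO lines (65.5%, against 6.59% of all features) and 1 rose (against 4.05%). Their median difference was -2.70, or -2.53 with dim genes at their bounds, beside -0.04 for all features. Tie1, an orphan receptor tyrosine kinase of endothelium, was at least 73.9-fold lower, with no TKO array well above background. Ptprb encodes VE-PTP, the receptor phosphatase that associates with VE-cadherin. It fell at least 22.6-fold, and its other probe, detected on 1 of the WT arrays and on no TKO array, gives a bound of at least 2.88-fold lower. Cd34, a sialomucin of endothelium and blood progenitors related in kind to endomucin, fell 46.9-fold on its brighter probe, and its other probe, detected on 1 of the WT arrays and on no TKO array, gives only a bound of at least 2.75-fold lower. Robo4, an endothelial guidance receptor measured on 3 of 4 TKO arrays, fell at least 25.3-fold. The 1 gene that rose was Jam2, a junctional adhesion molecule, named after its values were seen (2.72-fold on the brighter of its 2 probes). Kdr, also named after its values were seen, was not called, but its 2 probes differed. The probe that stood for it differed by 0.19 in TKO_26 and -1.16 in TKO_29. Its other probe, brighter in WT and well above background on all 6 arrays, lay 61.8-fold lower.

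Relatives of the 10 genes in the same protein families did not share one direction. Of 27 tested, 8 fell and 2 rose (29.6% lower, against 6.59% of all features lower and 4.05% higher; median difference -0.17). Of the 21 that were not also on the endothelial list, 6 fell and 1 rose. The one that rose was Cdh1, which encodes the epithelial cadherin and stood 54.9-fold higher on its only probe. Cdh11, a mesenchymal cadherin, fell at least 4.85-fold, but its other probe, detected on 1 of the WT arrays, gives a bound of only 1.004-fold lower. Stab2, the nearest relative of Stab1, was above background on 1 of 4 TKO arrays and fell at least 5.999-fold. Named after their values were seen, the claudins Cldn3, Cldn4, Cldn6, Cldn7 and Cldn12 passed in neither direction, at 1.08-fold to 2.12-fold higher than WT, Cldn7 being saturated on 1 TKO array.

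The cytoplasmic proteins that tie junctions to the cytoskeleton, such as the catenins, were not called in either direction. Of 17 tested, 0 fell and 0 rose by the limma call, beside 6.59% of all features lower and 4.05% higher. For so few genes these counts are near those shares, so nothing particular to this list is read from them. At an unadjusted p under 0.05 in both lines 1 was lower and 1 higher, and the median difference was 0.03. The largest in size was that of Plekha7, a junction-associated adaptor, 2.15-fold higher without passing. Ctnnb1 and Ctnnd1, named after their values were seen, encode the catenins that bind the tail of VE-cadherin and other cadherins. They differed by -0.08 and -0.17 in TKO_26, and both were saturated on TKO_29 replicate 1, so no value is given for TKO_29. Ctnna1 was saturated on all 6 arrays, so the counts for this list rest partly on capped signals.

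Endothelial transcription factors were mostly lower in TKO. Of 15 tested, 10 fell and 1 rose (66.7% lower, against 6.59% of all features lower and 4.05% higher; median difference -3.18, or -2.00 with dim genes at their bounds). Sox18, an endothelial SOX factor, fell at least 50.1-fold, and Sox7, another, was at least 46.6-fold lower, above background on no TKO array. Tal1, needed for blood and endothelial progenitors, fell at least 34.96-fold, and the ETS factor Fli1 at least 18.1-fold. The 1 factor that rose was Klf2, a shear-responsive gene named after its values were seen (2.21-fold).

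**Figure D4:**
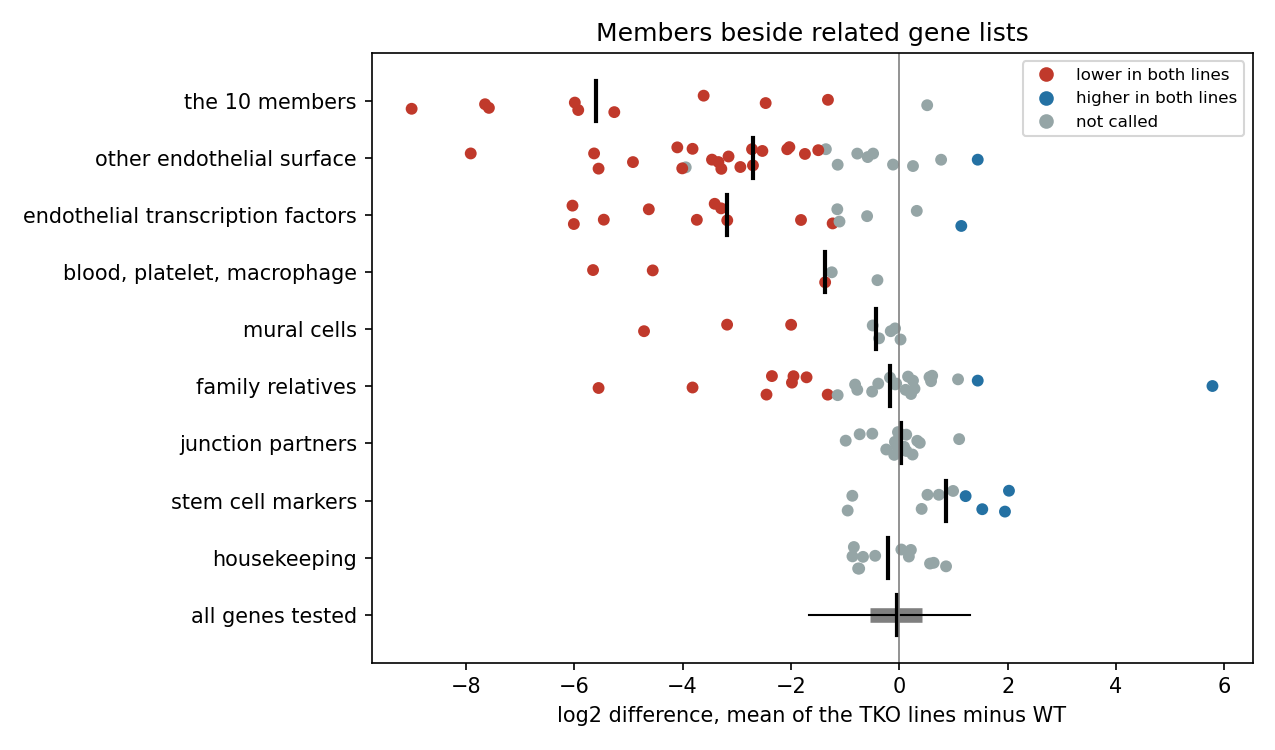
Log2 difference of the mean of the TKO lines from WT (horizontal axis) for the 10 genes and 8 related lists, 1 point per gene, with the median as a bar. The lowest row shows all features tested as the 5th, 25th, 50th, 75th and 95th percentiles. The 10 genes, other endothelial surface genes and endothelial transcription factors lie farthest to the left, and junction partners lie around 0.

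Cells that share some of these proteins were described by their own markers. Of 15 markers of leukocytes, platelets and macrophages, 14 were on the array under a matched name and 5 were tested. Of these, 3 fell (against 6.59% of all features) and none (0) rose (against 4.05%). None (0) was higher at an unadjusted p under 0.05 in both lines. Pf4, a platelet chemokine, was at least 21.4-fold lower and above background on no TKO array. Mrc1, the macrophage mannose receptor, fell at least 16.6-fold. Csf1r, the receptor of macrophage growth factor, was 2.58-fold lower by its brightest probe. Of its other probes, one differed by 0.05 in TKO_26 and -0.74 in TKO_29, and one was too dim for a fold. The summed signal of the 5 was 0.323 to 0.481 on the TKO arrays and 1.03 and 0.840 on the WT arrays. Adgre1, Lyz2, Cx3cr1 and Gp6 stayed below that limit on every array. Of 8 markers of mural cells, which wrap vessels, 3 fell (against 6.59% of all features) and none (0) rose (against 4.05%). At an unadjusted p under 0.05 in both lines 0 were higher. The 3 that fell were Rgs5 (at least 18.8-fold), Pdgfrb (9.06-fold) and Acta2 (at least 3.99-fold, since it was saturated on both WT arrays). The summed signal of the 6 mural markers saturated on no array, which leaves out Acta2 and Tagln, was 1.56 to 1.98 on the TKO arrays and 2.53 and 2.15 on the WT arrays. The part of these cells in the values of Esam, Icam2, Cd93 and Stab1 was not tested. Of 12 genes used by nearly every cell, 0 were called in either direction, beside 6.59% of all features lower and 4.05% higher. At an unadjusted p under 0.05 in both lines 1 was lower and 1 higher. The gene of that list that lay farthest from WT, Eef2, was saturated on all 6 arrays, so no difference is given.

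The 10 genes lie on 7 chromosomes, and the tested genes next to them in gene order were described too. Of 20 such neighbours, 2 fell in both TKO lines (against 6.59% of all features) and 0 rose (against 4.05%), with a median fitted difference of -0.23 and a range of -2.45 to 1.74. For so few genes these counts are near those shares, so nothing particular to the neighbours is read from them. These neighbours were chosen by position alone, after the values of the 10 genes were known. Both genes that fell lie beside Cdh5 on chromosome 8: Cdh11, on the one side, and Bean1, on the other (at least 2.32-fold). The dimmer probe of Cdh11 differed by only -0.22 in TKO_26 and -0.43 in TKO_29. Icam2 lies between Prr29 and Ern1, which differed by -0.18 and -0.40. Cd93 lies beside Thbd, a relative in the same lectin-like family that encodes thrombomodulin. Thbd lay 2.20-fold lower without passing in both lines, and Nxt1 on the other side differed by 0.15. Pecam1, which was not lower, lies on chromosome 11 like Icam2, between Tex2 (-0.09) and Milr1 (-0.88). Cdh5 and Plvap lie on chromosome 8, whose 783 named genes had median differences of 0.45 in TKO_26 and 0.43 in TKO_29, against medians between -0.11 and 0.02 on the other 6 chromosomes.

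**Figure D5:**
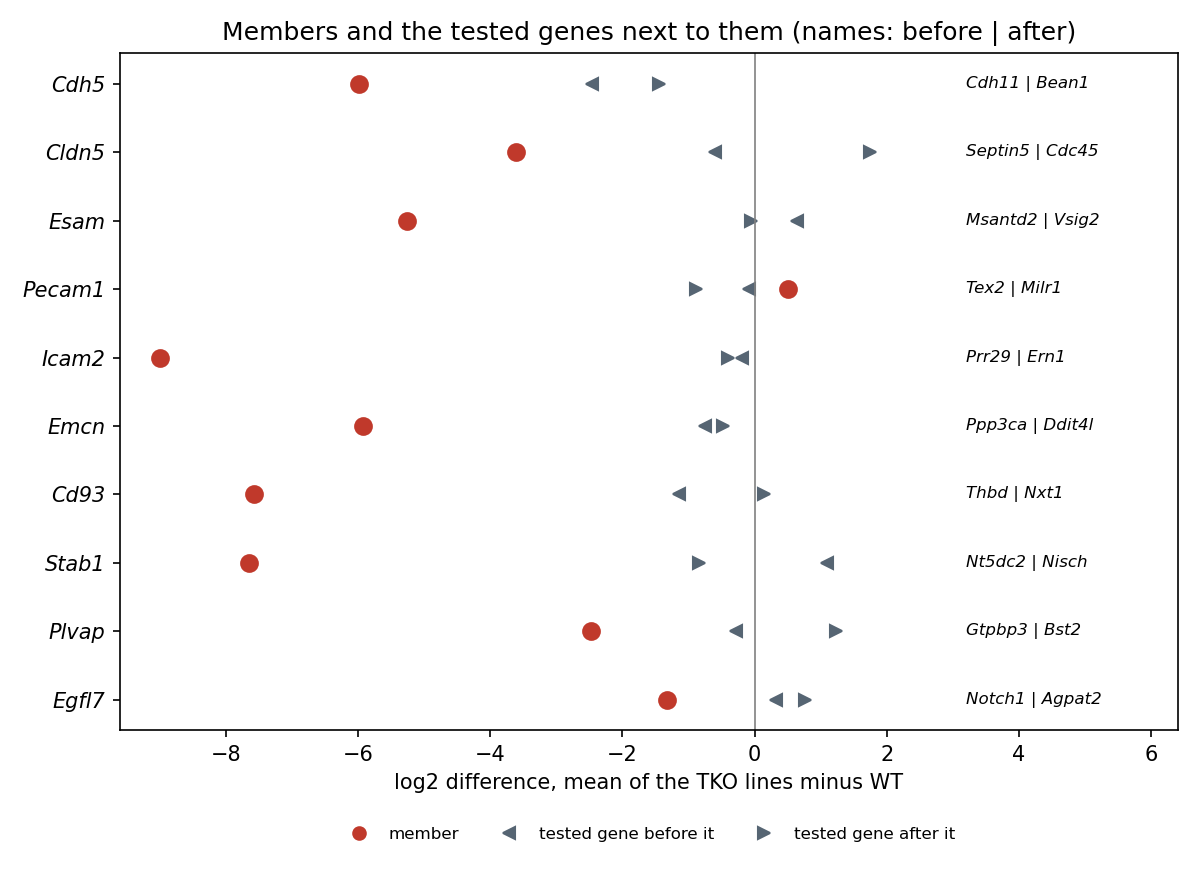
Log2 difference of the mean of the TKO lines from WT (horizontal axis) for each of the 10 genes (circles) and the tested genes before and after it in gene order (triangles). The neighbours lie between -2.45 and 1.74, and those of Icam2 near 0.

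The genes whose pattern over the 6 arrays came closest to the mean pattern of the 10, by Euclidean distance between levels centred per gene, were not endothelial surface genes. Among 12798 named genes that were above background on both WT arrays, these were Nppa (distance 0.33), Cygb (0.41), Gjb2 (0.46), Mybpc3 (0.46), Cox6a2 (0.51) and Lgals2 (0.51). Nppa encodes a cardiac natriuretic peptide, Mybpc3 a cardiac myosin-binding protein, Cox6a2 a muscle subunit of cytochrome oxidase, Cygb a globin and Gjb2 a connexin. Mybpc3, measured on all arrays, had levels of -5.34 and -5.34 in TKO_26 and of -5.37 and -5.23 in TKO_29, against -0.26 and -0.42 in WT. Of the 10 genes themselves, Esam (1.09) and Cdh5 (1.40) lay nearest to their mean and Pecam1 (6.20) and Icam2 (4.85) farthest. With 6 arrays of 3 lines the likeness, which includes arrays below background for Nppa, Cox6a2 and Lgals2, rests mainly on the difference between TKO and WT.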

How the data were processed

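Cy3-labelled total RNA was run on 1-colour Agilent arrays, per the labels' protocols. Per the file headers, Agilent Feature Extraction 10.5.1.1 reports spot intensities as processed signals, from which background is already taken off, together with detection, saturation and outlier flags. A value matrix on the log2 scale was deposited too, and the sources used here do not state how it was made. Each column was set against its own array on the log2 scale (r 0.995 to 1.00); the column labelled TKO_29 replicate 1 correlated slightly more with another array (0.99631) than with its own (0.99618), so its label is not borne out by this comparison. The matrix medians were 6.86 to 6.89, and values follow signal upwards and are not centred per gene.

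Control spots and outlier spots were left out (263 of 55681 probes were lost), saturated spots kept and spots of a probe averaged. Probes were named through unversioned accessions in a RefSeq table of GRCm38.p6 (27509 probes, 49.4%), used for names, chromosomes and gene order only. The array was designed on another assembly. Tested probes had signal well above background on both arrays of 1 line or more, and the brightest such probe stood for its gene.

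Lines were compared with limma 3.58.1 (R 4.3.3) on 6 arrays in 3 groups, and genotypes on line averages (1 WT, 2 TKO), with Benjamini-Hochberg adjustment over all 21421 features. Where normexp was planned on mean signals, which the files used here do not hold, median signals were used. Figures used Python 3.11.15 and matplotlib 3.10.9. The tests were tested on simulated data. The genes, lists and alternatives were chosen with earlier results of these data known. Named genes are the 10 genes, the Tet genes, up to 4 called genes of each list or the one with the largest difference, and the 6 genes nearest in pattern.

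The lists were other endothelial surface genes, family relatives, junction partners, endothelial transcription factors, blood, platelet and macrophage markers, mural markers, stem cell markers and genes used by nearly every cell.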

Additional observations from a re-analysis of the deposited data

How the results depend on the processing

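Over the alternatives, the mean difference from WT stayed below 0 for each of the 9 lower genes and above 0 for Pecam1. These are fitted values, which for genes below background or saturated are not measured sizes. Icam2 ranged from -9.09 to -7.15, Cd93 from -7.58 to -6.34, Stab1 from -8.11 to -4.62, Cdh5 from -6.13 to -4.65, Emcn from -6.38 to -3.04, Esam from -5.35 to -4.27, Cldn5 from -3.65 to -3.33, Plvap from -2.60 to -2.05 and Egfl7 from -1.48 to -0.60. With signal demanded on all 6 arrays 4 of the 10 genes were tested and 3 were lower, 18 other endothelial surface genes were tested and 11 fell, and 737 features fell and 449 rose, against 1412 and 867; this filter removes genes lost in TKO. With no filter 894 fell and 387 rose. With normexp 534 rose. Calls on line averages, 194 in all, were 0 with normexp, with no filter and with signal on all 6 arrays, 1812 with the authors' matrix values and 306 with the mean of a gene's probes; the cause was not tested. Leaving out each array in turn gave 7 to 9 of the 10 genes lower, 943 to 1425 features lower, 459 to 963 higher, 15 to 20 other endothelial surface genes lower, 0 to 2 of the 10 genes called between the TKO lines and 0 to 597 calls on line averages. The 0 came without WT replicate 1, WT replicate 2, TKO_26 replicate 2 or TKO_29 replicate 2, the 597 without TKO_29 replicate 1 and 119 without TKO_26 replicate 1. Calls of higher features were 500 without TKO_29 replicate 1 and 459 without TKO_29 replicate 2. With the replicate number as a block 9 of the 10 genes, 1327 features lower and 752 higher were called. The numbers do not pair the arrays: deviations of same-numbered arrays correlated at 0.39 (WT and TKO_26), -0.36 (WT and TKO_29) and -0.44 (TKO_26 and TKO_29) across 15339 genes.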
